A study of Mus musculus with 8 samples.

Results

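Polyamine synthesis and turnover was followed through 8 genes. They are *Amd1*, *Amd2*, *Odc1*, *Smox*, *Sat1*, *Srm*, *Sms* and *Azin1*, and the 6 of them whose symbols were among the 12551 counted genes are described. *Amd1* and *Amd2*, the genes of S-adenosylmethionine decarboxylase, were not analysed here. RNA was sequenced from whole tibialis anterior (TA) muscles of male mice aged 7 weeks, with 4 WT mice and 4 mice without Klotho (KL-/-). Klotho is a protein made mainly in the kidney that acts as a co-receptor for a phosphate-regulating hormone and also circulates in a soluble form. The KL-/- mice lack Klotho in every tissue, on a mixed background, and they and the WT mice were bred from Klotho+/- mice. The labels name no treatment in either group.

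Polyamines are small, positively charged molecules that bind nucleic acids and are needed for growth and translation. Ornithine decarboxylase (*Odc1*) makes putrescine from ornithine, and spermidine synthase (*Srm*) and spermine synthase (*Sms*) extend it with groups that S-adenosylmethionine decarboxylase provides. Antizymes send ornithine decarboxylase to degradation, and antizyme inhibitor (*Azin1*) binds the antizymes instead. Spermine oxidase (*Smox*) turns spermine back into spermidine, and spermidine/spermine acetyltransferase (*Sat1*) acetylates both for oxidation or export. In skeletal muscle, *Smox* and *Odc1* are known for their response to atrophy and hypertrophy.

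Of the 6 genes, *Smox* fell to 37.3% of its WT level in KL-/- TA muscles, and the other 5 did not pass the test. *Azin1* was lower in every KL-/- library than in every WT library but missed the threshold. *Odc1*, *Srm*, *Sms* and *Sat1* had overlapping genotypes. Each gene was tested on its counts with edgeR's quasi-likelihood test, and the false discovery rate (FDR) was adjusted over all 12551 genes, with 0.05 as the threshold. At that threshold 14.0% of all genes were called, 6.67% of all genes as lower and 7.35% as higher in KL-/- muscles. Among the members, 1 of 6 is 16.7%, close to that background. The genotypes did not overlap for 2 of the 6 members and for 19.7% of all genes. The median log2 fold change, KL-/- over WT, was −0.17 over the members and −0.02 over all genes. Bulk RNA cannot tell fewer cells of a type apart from less RNA per cell.

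**Figure D1:**
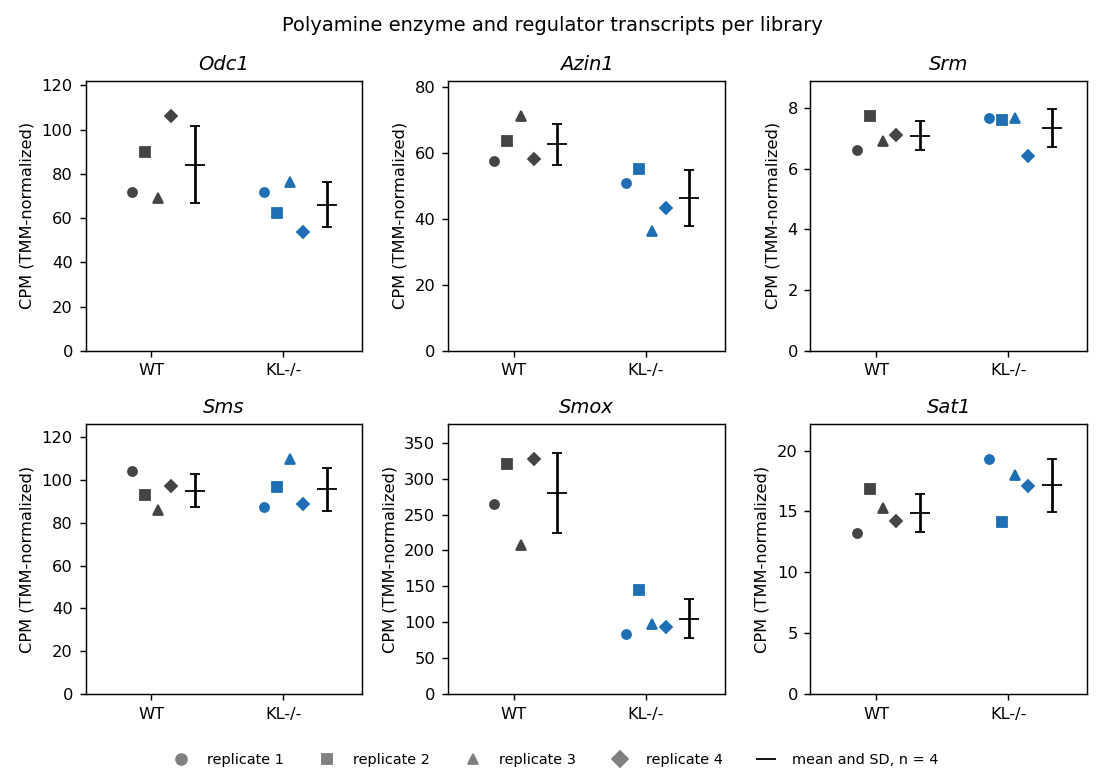
Level of each polyamine gene in each library, in CPM (counts relative to library size) with TMM-normalized library sizes, with 1 symbol per mouse and the mean ± SD beside each genotype (n = 4). *Smox* lay between 83.4 and 144.4 CPM in KL-/- and between 207.1 and 326.8 CPM in WT muscles, while *Sms* and *Srm* had overlapping genotypes.

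Counts summed to 20860262 to 26501093 per WT library and to 22061526 to 29273758 per KL-/- library. TMM factors were 1.02 to 1.05 in WT and 0.950 to 0.980 in KL-/- libraries. Without them, the median over all genes moved to −0.13 on the log2 scale and 18.8% of all calls were on the higher side, beside 52.4% with them. All values use them unless library totals are named. A batch date is shared by 7 libraries, and for KL-/- replicate 3, which has its own, batch and mouse cannot be told apart. All 8 muscle fibre markers were present, which fits the labelled tissue, with summed levels of 127300 to 143700 CPM in WT and 148100 to 185200 CPM in KL-/- muscles. By edgeR's test 0 of these 8 were called, and 3 had an unadjusted p under 0.05. The last of these 3, *Myh4*, was gene 4026 of the 12551 in that order, so at least 4026 of all genes were under that p. For the fibre list, 3 of 8 is near that share of all genes. Some markers of other cells changed. Of those measured, 3 of 10 macrophage, 3 of 8 fibro-adipogenic progenitor and 1 of 8 endothelial markers were called lower, beside 6.67% of all genes. Called higher were 3 of 6 Schwann cell markers, beside 7.35% of all genes. Log2 fold changes were negative for 9, 8 and 7 markers of the first 3 lists and positive for 5 Schwann cell markers. By edgeR's test 7 macrophage, 7 progenitor, 3 endothelial and 4 Schwann cell markers had an unadjusted p under 0.05. For the endothelial list, 3 of 8 is near the share of all genes given above for that p. From WT to KL-/- libraries, summed levels ranged from 42.6–97.9 to 30.6–60.2 CPM for macrophage markers, from 830.3–3034 to 458.9–1362 CPM for progenitor markers, from 503.6–738 to 498.9–513.3 CPM for endothelial markers and from 52.7–93.8 to 97.9–119 CPM for Schwann cell markers. No satellite cell (5 measured), adipocyte (3 measured) or red cell marker (1 measured) passed the test or had an unadjusted p under 0.05, and none of the markers measured was at 0 in any library. Their part in the results was not tested.

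The sequence before a RefSeq start of *Smox*, the member that changed, is shown first. It lies inside the GENCODE span of *Smox*, which begins further upstream, at 131491496. The sequences before a start of *Sat1*, the other catabolic enzyme, and of *Odc1*, the first enzyme of synthesis, follow as members that were not called. RefSeq promoter windows (GRCm38.p6) were matched for 4 of the 6 members. Each window holds 300 bases, 250 before and 50 after a start, and the longest stretch outside annotated exons is printed on the gene's strand. Capitals mark the GC box letters GGGCGG or CCGCCC.
Smox, chr2:131491654-131491763, plus strand: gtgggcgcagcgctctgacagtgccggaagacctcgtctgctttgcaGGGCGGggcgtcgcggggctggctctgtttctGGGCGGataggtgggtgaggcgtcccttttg
Sat1, chrX:155216450-155216699, minus strand: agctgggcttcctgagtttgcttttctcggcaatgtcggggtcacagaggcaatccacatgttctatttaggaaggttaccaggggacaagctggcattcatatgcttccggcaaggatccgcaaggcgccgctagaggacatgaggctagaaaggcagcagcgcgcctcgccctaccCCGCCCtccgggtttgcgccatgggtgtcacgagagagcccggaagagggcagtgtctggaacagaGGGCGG
Odc1, chr12:17544623-17544793, plus strand: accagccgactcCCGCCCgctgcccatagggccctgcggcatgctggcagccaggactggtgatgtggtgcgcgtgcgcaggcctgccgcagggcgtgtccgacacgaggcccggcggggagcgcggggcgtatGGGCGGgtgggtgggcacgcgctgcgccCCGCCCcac

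The whole *Smox* window held 6 GC boxes, 2 of them in the stretch shown, with 71.0% G and C. The *Odc1* window held 4 GC boxes and the *Sat1* window 2, with overlapping matches counted. Of the windows of *Sms*, which has 2, 1 held 4 GC boxes and the other held none. GC box letters on either strand were found in 35.7% of the 32851 RefSeq windows. The E-box letters CACGTG were found in the other *Sms* window and in 7.15% of all windows. TATAAA or its reverse complement was in none of the members' windows and in 13.6% of all windows. These matches describe letters and were not tested as binding sites.

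*Smox* is counted on mm10 chromosome 2, from 131491862 to 131525183 on the plus strand. Its counts lay between 2343 and 9114 per library, so counting error is small beside the spread between mice. In WT muscles it was at 265.0, 320.2, 207.1 and 326.8 CPM in replicates 1 to 4. In KL-/- muscles it was at 83.4, 144.4, 97.1 and 93.0 CPM. The highest KL-/- library, replicate 2, stayed below the lowest WT library, replicate 3. The means were 279.8 ± 55.8 CPM in WT against 104.5 ± 27.2 CPM in KL-/- muscles (SD, n = 4). The log2 fold change was −1.42 ± 0.19 (SE, FDR = 0.00393, edgeR's quasi-likelihood test), a 2.68-fold lower level in KL-/- with a 95% interval of 1.99- to 3.61-fold. By p-value *Smox* was gene 89 of the 12551. With each library left out in turn, the log2 fold change lay between −1.61 and −1.32 and the FDR between 0.000977 and 0.0163. None of the 4345 stretches of 50 bases in its transcripts was shared with another annotated gene.

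**Figure D2:**
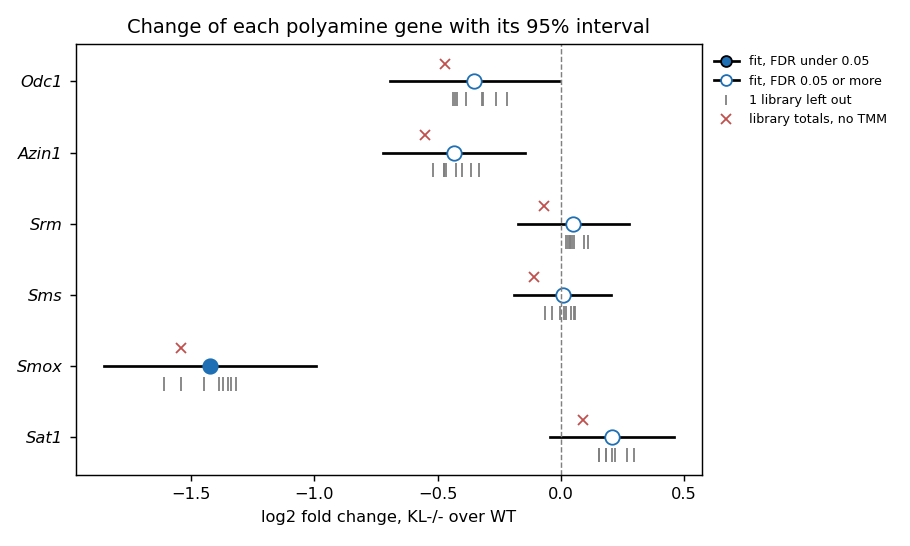
Log2 fold change, KL-/- over WT, of each polyamine gene, with circles for the edgeR fit, lines for its 95% interval, ticks for fits with 1 library left out and crosses for library totals without TMM factors. *Smox*, at −1.42, lies apart from 0 in each of these fits. The intervals of *Sms* and *Srm* hold 0, and both genes change sign when TMM factors are not used. *Sms* also changes sign without WT replicate 2, WT replicate 3 or KL-/- replicate 3.

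*Sat1*, which is on mm10 chromosome X from 155213126 to 155216449 on the minus strand, did not follow *Smox*. Its WT levels were 13.2, 16.9, 15.3 and 14.2 CPM and its KL-/- levels 19.3, 14.2, 18.0 and 17.1 CPM in replicates 1 to 4. KL-/- replicates 1, 3 and 4 lay above the WT maximum and replicate 2 lay within the WT range. On the log2 scale the change was 0.21, with a 95% interval from −0.05 to 0.46 (FDR = 0.234). The interval does not hold a decrease of the size seen for *Smox*.

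The ratio of *Smox* to *Sat1* within a library does not depend on the scaling between libraries. Per kb of gene length, *Smox* was 7.65 to 13.0 times *Sat1* in WT muscles and 2.44 to 5.76 times in KL-/- muscles, without overlap. The log2 ratio differed by −1.63 (two-sided exact permutation test over 70 relabelings, p = 0.0286, the smallest that 4 against 4 allows). Adjusted over the 3 ratios tested, p was 0.0858, and the difference thus failed the correction. Without any 1 WT library the unadjusted exact permutation p was 0.0571, with differences from −1.78 to −1.53.

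*Odc1* lies on mm10 chromosome 12 from 17544873 to 17551502, on the plus strand. Its WT levels were 71.9, 89.9, 69.0 and 106.1 CPM in replicates 1 to 4. The KL-/- levels were 71.7, 62.5, 76.4 and 53.5 CPM. KL-/- replicates 1 and 3 lay within the WT range, and the 2 lowest levels were in KL-/- replicates 2 and 4. That gave a log2 fold change of −0.35, with a 95% interval from −0.69 to −0.01, and did not pass the test over all genes (FDR = 0.147). Pseudogene copies limit this value, since 24.3% of the 50-base stretches of its transcripts also occur in other annotated genes, and how the counting treated such reads is not stated.

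*Azin1* protects ornithine decarboxylase from antizyme. It lies on mm10 chromosome 15 from 38487430 to 38519266, on the minus strand. WT levels were 57.5, 63.6, 71.2 and 58.3 CPM, and KL-/- levels 51.1, 55.1, 36.2 and 43.2 CPM. Every KL-/- library was below every WT library, with the lowest level in KL-/- replicate 3, whose batch date differed. The means were 62.6 ± 6.33 CPM in WT against 46.4 ± 8.40 CPM in KL-/- muscles (SD, n = 4). The log2 fold change was −0.43 ± 0.13 (SE), at an FDR of 0.0514, just above the threshold. It was called with KL-/- replicate 2 left out (FDR = 0.0204) and in no other fit with 1 library left out, where log2 fold changes ran from −0.52 to −0.33. Its exons overlap those of the antisense gene *Gm49077*, and because strand use in the counting is not stated, reads of both cannot be told apart. The ratio of *Odc1* to *Azin1* per kb was 1.97 to 3.70 in WT and 2.31 to 4.29 in KL-/- muscles. These ranges overlap (difference in log2 ratio 0.10, exact permutation p = 0.743).

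Neither synthase passed the test. *Srm*, on mm10 chromosome 4 from 148591513 to 148594619 on the plus strand, was at 6.61, 7.72, 6.90 and 7.10 CPM in WT and at 7.67, 7.59, 7.67 and 6.41 CPM in KL-/- replicates 1 to 4. The highest level was in WT replicate 2 and the lowest in KL-/- replicate 4, so that the genotypes overlapped. Its log2 fold change was 0.05, with a 95% interval from −0.18 to 0.28 (FDR = 0.763), and it turned to −0.07 without TMM factors.

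*Sms* is on mm10 chromosome X from 157443954 to 157492046, on the minus strand. WT levels were 104.2, 93.1, 86.0 and 97.3 CPM. KL-/- levels were 87.4, 96.8, 109.7 and 88.7 CPM, so that the highest of all 8 was KL-/- replicate 3 and the lowest WT replicate 3. This was a log2 fold change of 0.01, with a 95% interval from −0.19 to 0.20 (FDR = 0.962). Its sign turned without TMM factors (−0.11) and without WT replicate 2 (−0.0026), WT replicate 3 (−0.04) or KL-/- replicate 3 (−0.06). Of the 50-base stretches of its transcripts, 17.5% are shared with other annotated genes such as *Sms-ps*. The ratio of *Sms* to *Srm* per kb was 4.74 to 6.20 in WT and 4.48 to 5.63 in KL-/- muscles. The log2 ratio differed by −0.04 (exact permutation p = 0.743).

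Levels per length were not corrected for 50-base stretches shared with other annotated genes, which made up 24.3% for *Odc1*, 17.5% for *Sms* and 0% for *Smox*. Compared per length, *Smox* was the most abundant of the 6 transcripts in both genotypes. In WT muscles its level was 123.7 ± 24.7 CPM per kb. *Odc1* at 33.1 ± 6.79 and *Sms* at 28.2 ± 2.26 CPM per kb followed, and their ranges overlapped. *Azin1* at 12.1 ± 1.22 and *Sat1* at 11.7 ± 1.23 CPM per kb also overlapped, and *Srm* was lowest at 5.34 ± 0.35 CPM per kb.

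In KL-/- muscles *Smox* remained on top at 46.2 ± 12.0 CPM per kb, above *Sms* at 28.3 ± 3.03 and *Odc1* at 25.9 ± 3.98 CPM per kb, which overlapped each other. *Sat1*, at 13.4 ± 1.70 CPM per kb, lay above *Azin1* at 8.96 ± 1.62 CPM per kb, without overlap. *Srm* was again lowest, at 5.52 ± 0.47 CPM per kb. Of the summed level per kb of the 6 genes, *Smox* made up 57.4 ± 3.54% in WT and 35.7 ± 6.10% in KL-/- muscles (SD, n = 4). A share of a sum rises for the other genes when 1 falls, and these shares are descriptive.

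**Figure D3:**
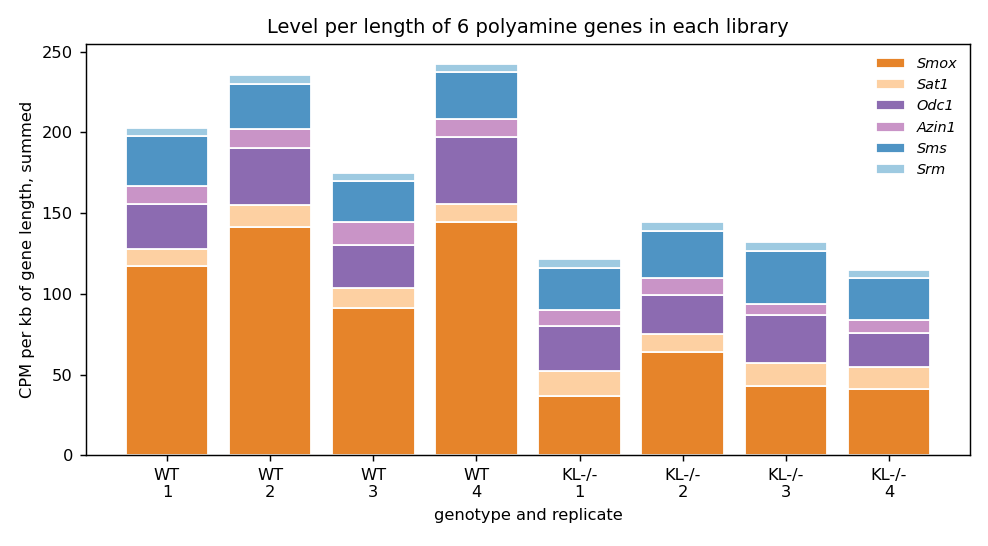
Summed level of the 6 polyamine genes in each library, in CPM per kb of gene length, stacked by gene. The *Smox* segment spans 91.5 to 144.5 CPM per kb in WT and 36.9 to 63.8 CPM per kb in KL-/- libraries, while the *Sms* segment spans 25.5 to 30.9 and 25.9 to 32.5 CPM per kb.

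The 3 genes whose profile over the 8 libraries was most like that of *Smox* were *Neto2*, *Kcng4* and *Cnga3*. Likeness was the root mean square difference of log2 CPM after each gene was centred at its own mean, and was 0.227, 0.233 and 0.251. *Kcng4*, a potassium channel subunit, was at 120.2, 130.5, 111 and 100.3 CPM in WT and at 29.4, 59.2, 33.9 and 34.8 CPM in KL-/- replicates 1 to 4. As for *Smox*, KL-/- replicate 2 was the highest of the KL-/- libraries. *Neto2*, an accessory subunit of glutamate receptors, went from 3.52 ± 1.04 to 1.19 ± 0.43 CPM, and *Cnga3*, a cyclic nucleotide-gated channel subunit, from 2.56 ± 0.36 to 1.21 ± 0.60 CPM. They were picked for their likeness to *Smox*, so their own difference between genotypes is not a further result.

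Other genes of polyamine metabolism were read from the same fit. Of 49 genes listed by role, 35 were measured, of which 6 were higher, 4 were lower and 25 did not pass the test. The called share was 28.6%, beside 14.0% of all genes. This list was chosen with earlier results of these data known, and its share was not tested. The median log2 fold change was 0.07, and the genotypes did not overlap for 11 of the 35 genes, beside 19.7% of all genes. The count depended on single libraries and fell to between 2 and 6 when any of them but KL-/- replicate 2 was left out, and rose to 13 without that library. It was 5, 3, 4 and 5 without WT replicates 1 to 4 and 6, 4 and 2 without KL-/- replicates 1, 3 and 4. The share of all genes called moved as well, to 6.07% to 10.9% in these 7 fits, where the pathway share was 5.71% to 17.1%. Without KL-/- replicate 4 the pathway share of 5.71% was no higher than the 6.20% of all genes. Only *Gnmt* and *Slc7a2* of the 10 called genes kept their calls under all 17 alternatives tried, of which that without a filter is the main fit itself.

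**Figure D4:**
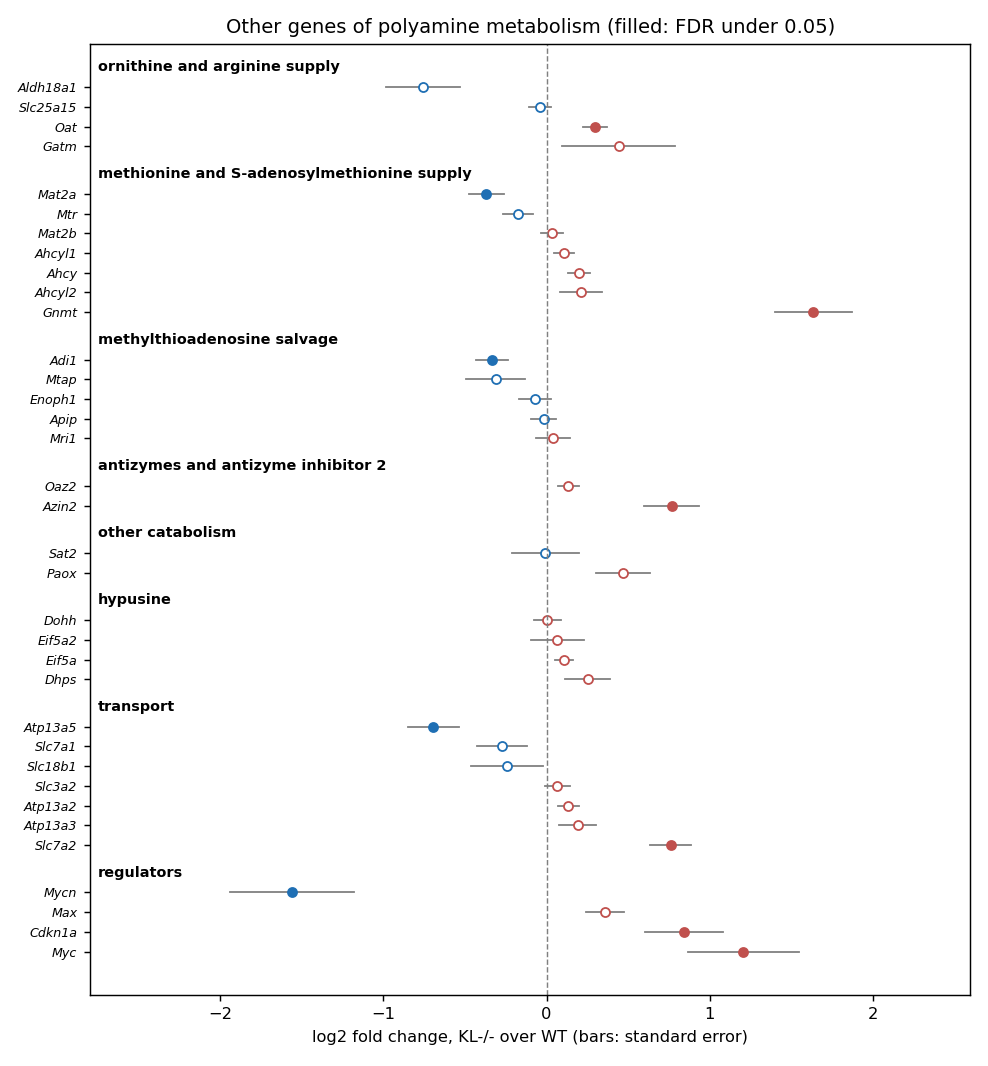
Log2 fold change, KL-/- over WT, of 35 other genes of polyamine metabolism, grouped by role, with bars for the standard error and filled circles for genes past the FDR threshold. The 6 filled circles on the higher side include *Gnmt* at 1.64, and the 4 on the lower side include *Mycn* at −1.56.

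Over all genes, 7.35% were called higher and 6.67% lower, the background for the counts by role given from here on. Among genes of ornithine and arginine supply, 1 of 4 measured was higher and none lower. *Oat*, the mitochondrial enzyme that interconverts ornithine and glutamate semialdehyde, was at 200.6, 165.0, 175.7 and 177.7 CPM in WT and at 212.4, 212.8, 242.2 and 215.7 CPM in KL-/- muscles. All KL-/- libraries lay above all WT libraries. On the log2 scale the change was 0.30 ± 0.07 (SE, FDR = 0.0305). The call was lost with library totals (FDR = 0.0973) and without WT replicate 2, 3 or 4 (FDR = 0.0850, 0.0800 and 0.0601) or KL-/- replicate 3 or 4 (FDR = 0.0850 and 0.0665).

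Of 7 genes of methionine and S-adenosylmethionine supply, 1 was higher and 1 lower. *Gnmt*, a methyltransferase that uses S-adenosylmethionine to methylate glycine, was at 0.73, 0.65, 0.80 and 0.57 CPM in WT and at 2.02, 2.00, 2.90 and 1.70 CPM in KL-/- muscles. It rested on 14 to 21 counts per WT library and on 42 to 70 per KL-/- library. Its log2 fold change was 1.64 ± 0.24 (SE, FDR = 0.00497).

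*Mat2a*, the catalytic subunit of the enzyme that makes S-adenosylmethionine outside the liver, was at 228.1, 222.5, 206.9 and 217.8 CPM in WT and at 148.5, 212.9, 154.3 and 162.3 CPM in KL-/- muscles. KL-/- replicate 2 lay within the WT range and the other KL-/- libraries lay below it. The log2 fold change was −0.37 ± 0.11 (SE) at an FDR of 0.0494, at the edge of the threshold. In the edgeR 3 quasi-likelihood test the FDR was 0.0519. The call held without KL-/- replicate 2 and was lost without any of the other 7 libraries. The FDR was 0.0992, 0.111, 0.0855 and 0.0791 without WT replicates 1 to 4 and 0.109, 0.127 and 0.123 without KL-/- replicates 1, 3 and 4.

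Methylthioadenosine, the by-product of both synthases, is recycled by enzymes of which 5 were measured, and 1 was lower and none higher. *Adi1*, the dioxygenase near the end of that route, was at 58.1, 51.9, 49.3 and 66.9 CPM in WT and at 42.0, 47.1, 47.5 and 42.8 CPM in KL-/- muscles, without overlap. Its log2 fold change was −0.34 ± 0.10 (SE, FDR = 0.0494). The call was lost in limma-voom (FDR = 0.0514) and with RLE factors (FDR = 0.0519). It was also lost without WT replicate 1, 2 or 4 (FDR = 0.0973, 0.0706 and 0.0817) and without KL-/- replicate 1, 3 or 4 (FDR = 0.109, 0.0846 and 0.124).

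Of the antizymes and the second antizyme inhibitor, *Oaz2* and *Azin2* were measured. *Oaz2*, an antizyme, was at 170.9 ± 8.35 CPM in WT against 187.3 ± 11.8 CPM in KL-/- muscles, with overlapping genotypes (log2 fold change 0.13, FDR = 0.187). *Azin2*, a relative of ornithine decarboxylase that binds antizymes, was at 2.08, 1.53, 1.56 and 2.40 CPM in WT and at 3.21, 3.24, 3.11 and 3.43 CPM in KL-/- muscles. Its log2 fold change was 0.77 ± 0.17 (SE, FDR = 0.0201), from 33 to 92 counts per library. Its call was lost without WT replicate 2 or 3 (FDR = 0.0558 and 0.0578) or KL-/- replicate 4 (FDR = 0.0578).

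Neither of the 2 other catabolic genes measured was called by edgeR's quasi-likelihood test, its likelihood ratio test, DESeq2 or limma-voom, and 1 of them, *Paox*, had an unadjusted p under 0.05 in the first of these. *Paox*, which encodes the peroxisomal oxidase of acetylated polyamines, was at 3.06 ± 0.70 CPM in WT against 4.22 ± 0.31 CPM in KL-/- muscles (log2 fold change 0.47, FDR = 0.0862). By p-value *Paox* was gene 2683 of the 12551. None of the 4 genes of hypusine, the spermidine-derived residue of a translation factor, was called by any of these tools, and none had an unadjusted p under 0.05 in edgeR's quasi-likelihood test. *Eif5a*, which encodes that factor, was at 339.1 ± 13.1 CPM in WT against 365.4 ± 5.94 CPM in KL-/- muscles. The genotypes of *Eif5a* did not overlap, at a log2 fold change of 0.11 (FDR = 0.191) that turned to −0.01 without TMM factors. *Dhps*, which makes the first step of hypusine synthesis, was at 15.2 ± 2.39 and 18.1 ± 2.56 CPM (log2 fold change 0.25, FDR = 0.233).

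Of 7 transport genes, 1 was higher and 1 lower. *Slc7a2*, a transporter of arginine, lysine and ornithine, was at 107.7, 102.5, 109.6 and 86.9 CPM in WT and at 186.9, 199.8, 170.1 and 132.9 CPM in KL-/- muscles. The lowest KL-/- library, replicate 4, was above the highest WT library. This was a log2 fold change of 0.76 ± 0.12 (SE, FDR = 0.00729), and without each library in turn the FDR lay between 0.00714 and 0.0251. *Slc7a1*, a transporter of the same amino acids, went from 6.66 ± 1.03 to 5.50 ± 0.84 CPM with overlap (FDR = 0.242).

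*Atp13a5*, a member of the transport ATPase family that includes the lysosomal polyamine exporter *Atp13a2*, was at 6.45, 4.86, 5.30 and 6.28 CPM in WT. It was at 3.49, 4.53, 2.98 and 3.24 CPM in KL-/- muscles, below every WT library. The log2 fold change was −0.69 ± 0.16 (SE, FDR = 0.0223). The call was lost without WT replicate 1 (FDR = 0.0543) or KL-/- replicate 3 or 4 (FDR = 0.0624 and 0.0664).

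The 4 regulators described were transcription factors and a cell cycle inhibitor linked to these enzymes, and 2 were higher and 1 lower. *Myc*, a transcription factor for which *Odc1* is a known target, was at 2.65, 2.68, 3.13 and 2.22 CPM in WT and at 4.57, 11.5, 3.81 and 5.13 CPM in KL-/- muscles, with KL-/- replicate 2 far above the rest. Its log2 fold change was 1.21 ± 0.34 (SE, FDR = 0.0435). Without KL-/- replicate 2 the change was smaller and still called (0.77). The call was lost without each WT replicate (FDR = 0.0837, 0.0949, 0.0822 and 0.0864 for replicates 1 to 4) or KL-/- replicate 4 (FDR = 0.0745), and in limma-voom (FDR = 0.0683).

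*Mycn*, a relative of *Myc*, went the other way, from 0.86, 1.34, 2.36 and 1.90 CPM in WT to 0.35, 0.81, 0.41 and 0.68 CPM in KL-/- muscles. It rested on 10 to 62 counts per library, and the genotypes did not overlap. The log2 fold change was −1.56 ± 0.38 (SE, FDR = 0.0284). The call was lost without WT replicate 2, 3 or 4 (FDR = 0.0548, 0.0769 and 0.0580) or KL-/- replicate 1, 3 or 4 (FDR = 0.0696, 0.0790 and 0.0612).

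*Cdkn1a*, a cyclin-dependent kinase inhibitor, was at 16.6, 17.9, 13.3 and 16.8 CPM in WT and at 27.1, 16.1, 41.9 and 30.4 CPM in KL-/- muscles. KL-/- replicate 2 lay within the WT range, and replicate 3, whose batch date differed, was highest. On the log2 scale the change was 0.84 ± 0.24 (SE, FDR = 0.0457). The call held without KL-/- replicate 2 and was lost without any other library. The FDR was 0.0848, 0.0858, 0.122 and 0.0752 without WT replicates 1 to 4 and 0.0719, 0.103 and 0.107 without KL-/- replicates 1, 3 and 4. It was also lost in limma-voom (FDR = 0.0673) and with library totals (FDR = 0.0582).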

How the data were processed

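TA muscles were snap-frozen, and libraries were made from 100 ng of RNA per mouse. The labels name total RNA, whereas the study's methods describe mRNA libraries. The authors aligned reads with STAR to mm10, dropped alignments of low quality and ran featureCounts. The deposited values are its raw counts per gene, with a gene length. The annotation and strand setting are not given in the sources used here. The table was already limited to expressed genes, since edgeR's default filter kept all 12551.

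Counts were analysed with edgeR 4.0.16 in R 4.3.3, with TMM factors, genotype as the only term and the quasi-likelihood test. In CPM, 3 counts are 0.105 to 0.143 at these depths, a floor that covers counting error only. The mice are separate samples by label. No 2 libraries of a genotype were alike within sampling noise, with a chi-square per gene of 9.91 or more. Alternatives were the likelihood ratio test, DESeq2 1.42.0, limma-voom (limma 3.58.1), RLE factors, library totals, no filter, at least 10 counts in every library, a replicate block, the edgeR 3 test (chosen after seeing the data) and each library left out. All measured members were named, with each pathway gene past the threshold, *Oaz2*, *Paox*, *Mat2a*, *Eif5a*, *Dhps* and the 3 genes most like *Smox*. *Slc7a1* and *Max* were chosen after their values were seen. The members and lists were chosen with earlier results of these data known. Transcript stretches and exon overlaps were read from GENCODE vM21. *Kl*, *Oaz1*, *Amd1* and *Amd2* were not analysed here, and 1 listed gene is not reported here.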

Additional observations from a re-analysis of the deposited data

Results flagged for a closer look

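Among the 20 members and pathway genes named, *Slc7a1* and *Max* aside, 40 groups of 4 libraries were searched. A library far from the others was found in 3 of these groups. Chance gives about 1 in 20 groups. *Srm* in KL-/- replicate 4 was at 6.41 CPM, while the other KL-/- libraries lay between 7.59 and 7.67 CPM. *Oat* in KL-/- replicate 3, whose batch date differed, was at 242.2 CPM, while the others lay between 212.4 and 215.7 CPM. *Myc* in KL-/- replicate 2 was at 11.5 CPM, while the others lay between 3.81 and 5.13 CPM.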

How the results depend on the processing

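*Smox* was past the threshold under all 17 alternatives, with log2 fold changes from −1.61 to −1.32. The alternative without a filter could not differ, since the filter kept every gene and it is the main fit itself. The number of members called went from 1 to 2, by *Azin1*, in the likelihood ratio test, DESeq2, limma-voom and library totals (2 each), and ranged from 1 to 2 with 1 library left out. Without TMM factors, signs turned for *Srm* (−0.068), *Sms* (−0.11) and *Eif5a* (−0.00998), and *Sms* ranged from −0.065 to 0.059 with 1 library left out. The labels name no pairing by replicate number. Correlations of same-numbered deviations ran from −0.37 to 0.18, which cannot exclude a pairing, as each genotype has only 4 libraries. With the replicate block, 3 of 35 pathway genes and 671 of all genes were called (10 and 1759 without it). The block ended the calls of *Oat*, *Mat2a*, *Adi1*, *Azin2*, *Atp13a5*, *Myc* and *Cdkn1a* (FDR from 0.0545 to 0.118), and *Smox* was at −1.43 (FDR = 0.0119). With 1 library left out, pathway calls ranged from 2 to 13 and calls over all genes from 762 (without KL-/- replicate 3) to 2755 (without KL-/- replicate 2). The *Smox* to *Sat1* difference was −1.63 with the block (exact sign-flip permutation p = 0.125, the smallest possible). With 1 library left out it ranged from −1.89 to −1.47, at an exact permutation p of 0.0286, the smallest possible, without a KL-/- library and 0.0571 without a WT library. The ratio of *Odc1* to *Azin1* ranged from −0.084 to 0.25 and that of *Sms* to *Srm* from −0.094 to 0.034 (differences in log2 ratio). Tests that need *Amd1*, *Amd2* or *Oaz1* (the summed *Amd1* and *Amd2* and 2 of 5 ratios) were not run.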
